A study of Mus musculus with 15 samples.

Results

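The comparison of 2-cell embryos from reproductively aged mothers rested on 4 of the 15 samples of the series, 2 from 10–12 m females and 2 from 6–8 m females, chosen by the titles of the samples. All females were C57BL/6 mice, superovulated with PMSG and hCG, and their oocytes were fertilized in vitro with sperm of adult C57BL/6 males and cultured in KSOM. By the methods of the study its aged females were retired breeders, whereas the 8–10 w females, whose 2 samples shared the model and are shown here as levels only, were virgins. Each sample was 1 library from a pool of embryos, made by Smart-Seq2, a protocol that amplifies full-length polyadenylated RNA and keeps no strand and no molecular identifiers. The source field of the labels names oocytes for these samples while their titles name 2-cell embryos, and the titles were followed. The embryos were made in separate experiments, and which sample came from which is not given in the sources used here.

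The 2-cell stage is where the mouse embryo first transcribes its own genome on a large scale. RNA stored by the oocyte is destroyed over the same hours, by deadenylation and decay, while genes such as the Zscan4 family, Zfp352 and many genes driven by retroviral repeats are switched on. A 2-cell library therefore holds a mixture of maternal and embryonic RNA. Oocytes of older females are known for errors of chromosome segregation, altered mitochondria and altered stored RNA, and the question of the comparison was which transcripts differ between embryos of the oldest and the middle age.

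The libraries held 18703094 and 15723095 fragments at 6–8 m, 12527845 and 15549082 at 10–12 m, and 15067298 and 13566504 at 8–10 w. For each gene the longest RefSeq transcript was taken, and at least 1 fragment was seen for 17682 and 17069 of 24222 genes at 6–8 m and for 16913 and 17331 at 10–12 m. Levels are given in FPM, the fragments of that longest transcript scaled to a fixed library total. TMM factors correct them for differences in composition between libraries. Other transcripts of a gene are not added, so the level of the whole gene can be higher. Fold changes are log2 values of 10–12 m over 6–8 m with their standard errors, and replicates are separate samples that may share an experiment, so that p-values measure the spread between these samples only.

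Markers of the stage were present in all 6 libraries. Zscan4d, a 2-cell-specific zinc finger gene, stood at 156 and 136 FPM at 6–8 m and at 132 and 207 FPM at 10–12 m. Zfp352, another gene of early genome activation, stood at 396 and 325 FPM against 319 and 480 FPM. The maternal genes Zp3, which encodes a zona pellucida protein, and Gdf9, an oocyte growth factor, were still detected, Zp3 at 71.1 and 68.6 FPM against 65.6 and 63.2 FPM, and Gdf9 at 180 and 161 FPM against 139 and 223 FPM. Pou5f1, a gene of the later pluripotent cells, was low in all of them, between 1.71 and 3.60 FPM. For each of these 5 genes the log2 fold change between the ages was smaller than its standard error.

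No gene passed the test between 10–12 m and 6–8 m embryos. With a log2 fold change above 1 or below -1 and an adjusted p below 0.05 as the rule for DEGs, 0 of 13136 genes tested were called higher (0.0%) and 0 were called lower (0.0%) by edgeR's quasi-likelihood F test with Benjamini-Hochberg adjustment, and the smallest adjusted p was 0.9997. At an unadjusted p below 0.05 there were 240 genes (1.83%), 169 higher (1.29%) and 71 lower (0.54%) at 10–12 m. The 1.83% is under the share of 0.05 that this threshold alone would give if no gene differed. DESeq2 also gave 0 DEGs, with 133 genes at an unadjusted p below 0.05. The median log2 fold change over all genes was 0.012. Leaving out 6–8 m replicate 2 gave 4 DEGs, leaving out 10–12 m replicate 1 gave 1 and leaving out 10–12 m replicate 2 gave 3, and those genes are described with the lists below. The experiment of each sample is no term of the model. With the replicate numbers crossed between the ages, a pairing chosen after seeing the data, a fit of the 4 samples alone gave 30 genes at an adjusted p below 0.05 by edgeR and 2 DEGs, and a fit of all 6 gave 0 DEGs.

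The spread between replicates of the same age was as large as the difference between ages. Between the 2 libraries of 6–8 m, 785 genes (5.98%) differed by more than 2-fold, with a median absolute log2 difference of 0.306. Between the 2 libraries of 10–12 m, 883 genes (6.72%) did, with a median of 0.300. The closest libraries were of different ages. The library of 6–8 m replicate 2 and that of 10–12 m replicate 1 had a median difference of 0.195, with 666 genes (5.07%) past 2-fold, and 6–8 m replicate 1 and 10–12 m replicate 2 had a median of 0.239, with 531 genes (4.04%). The remaining cross-age pairs, 6–8 m replicate 1 with 10–12 m replicate 1 and 6–8 m replicate 2 with 10–12 m replicate 2, had medians of 0.319 and 0.284.

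**Figure D1:**
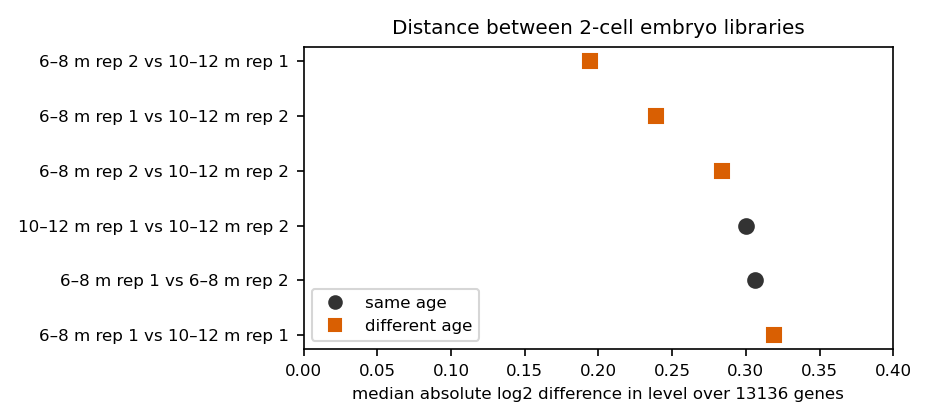
Median absolute log2 difference in TMM-scaled level over 13136 genes (x axis, log2 units) for each pair of the 4 libraries, circles for pairs of the same age and squares for pairs of different age. The same-age pairs, at 0.300 and 0.306, lie to the right of 3 of the 4 cross-age pairs, which run from 0.195 to 0.319.

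The precision of the comparison depended on the level of the gene. For the 1255 genes at 100 FPM or more, the median standard error was 0.21, no gene was past a 2-fold change, and the 95% confidence interval of the fold change lay inside 2-fold for 98.8% of them. For the 4998 genes from 10 to 100 FPM the median standard error was 0.222, 2 genes were past 2-fold, and the interval lay inside 2-fold for 98.1%. Among the 5458 genes from 1 to 10 FPM the median standard error was 0.369, and 47.2% had an interval inside 2-fold. Among the 1425 genes under 1 FPM the median standard error was 0.688 and the interval reached past 2-fold for every gene. In all, 8719 genes (66.4%) had an interval inside 2-fold. The 288 genes (2.19%) past 2-fold in either direction, 176 higher and 112 lower, had a median level of 0.704 FPM, against 8.82 FPM over all genes tested.

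**Figure D2:**
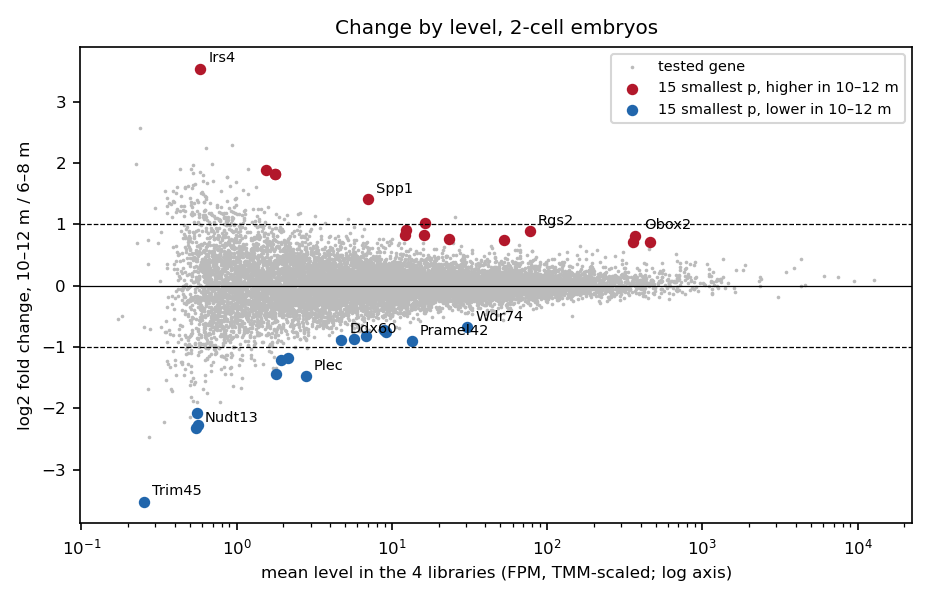
Log2 fold change of 10–12 m over 6–8 m (y axis) against the mean TMM-scaled level in the 4 libraries (x axis, FPM on a log axis) for 13136 genes in grey, with the 15 genes of smallest p in each direction in red and blue and dashed lines at a 2-fold change. The fold changes fan out toward low levels, and 223 of the 288 genes past 2-fold lie under 1 FPM.

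The genes described next are the 15 in each direction with the smallest p among those whose groups lay apart, that is, with both libraries of one age above both of the other. Such genes were common, 1781 of 13136 higher at 10–12 m (13.6%) and 1470 lower (11.2%), 3251 in all (24.7%), and none of the 30 passed the test, each with an adjusted p of 0.9997 by edgeR. Their values are given as measured levels, and in bulk pools fewer cells of a type and less RNA per cell cannot be told apart.

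Rgs2, a regulator of G protein signalling that damps calcium release in the egg, had the smallest p of all genes. It lies at chr1:143999338-144004149 on the minus strand (mm10), and its levels were 52.4 and 55.7 FPM at 6–8 m and 85.3 and 115 FPM at 10–12 m, with 54.4 and 46.1 FPM at 8–10 w. The log2 fold change was 0.89 ± 0.21 (SE), with an unadjusted p of 0.00033 and a 95% interval of 0.46 to 1.33. Both 10–12 m libraries lay above the other 4, whose levels differed little.

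Obox1 and Obox2, oocyte-specific homeobox genes in a cluster on chromosome 7, were abundant and higher in both 10–12 m libraries. Obox2, at chr7:15388851-15398543 on the plus strand, stood at 228 and 310 FPM at 6–8 m and at 392 and 554 FPM at 10–12 m, a log2 fold change of 0.82 ± 0.23 (SE) with an unadjusted p of 0.00216. Obox1, at chr7:15547257-15556846 on the same strand, stood at 329 and 367 FPM against 495 and 649 FPM, a log2 fold change of 0.72 ± 0.22 (SE) with an unadjusted p of 0.00403. The 8–10 w libraries were lowest, at 171 and 220 FPM for Obox2 and at 208 and 280 FPM for Obox1. The other tested Obox genes, Obox5, Obox7, Obox3 and Obox6, had log2 fold changes of 0.34 ± 0.24, 0.43 ± 0.21, -0.04 ± 0.21 and -0.12 ± 0.20 (SE), and differences among the Obox genes were not tested. The Obox genes are close copies of each other, and the assignment of fragments among them is uncertain.

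Psenen, a subunit of the gamma-secretase complex that cuts Notch and other membrane proteins, stood at 35.3 and 43.9 FPM at 6–8 m and at 69.2 and 63.4 FPM at 10–12 m, a log2 fold change of 0.75 ± 0.22 (SE). The 8–10 w libraries were lower than both, at 18.7 and 26.9 FPM. Cmtm8, which encodes a membrane protein of the MARVEL family, stood at 7.54 and 9.70 FPM against 17.5 and 14.6 FPM. Pdcd6, a calcium-binding protein of vesicle traffic, stood at 10.2 and 12.9 FPM against 24.0 and 16.8 FPM. In all 3 genes 10–12 m replicate 1 was the highest of the 4 libraries.

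Ccdc201 stood at 9.46 and 12.0 FPM at 6–8 m and at 26.3 and 17.5 FPM at 10–12 m, and was one of the 2 genes above 10 FPM that were past 2-fold, with a log2 fold change of 1.03 ± 0.29 (SE). The other was Gm4567, whose ages overlapped and which is described after the splicing genes. Tmem267 stood at 9.66 and 7.70 FPM against 15.8 and 15.1 FPM, but its 8–10 w levels, 13.3 and 14.9 FPM, were close to those of 10–12 m. E330021D16Rik, at 271 and 273 against 359 and 529 FPM, and the pseudogene transcript Speer5-ps1, at 17.9 and 16.5 against 31.1 and 27.2 FPM, were higher in both 10–12 m libraries.

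The genes with the largest fold changes in this set had few fragments. Irs4, an X-linked adaptor of insulin signalling, had 2 and 1 fragments at 6–8 m and 13 and 17 at 10–12 m, a ratio of 12.5 per scaled fragment with a 95% exact counting interval of 3.90 to 64.2. The 8–10 w libraries held 9 and 11 fragments of Irs4, so that the 6–8 m libraries were the low ones. Fabp7, a fatty acid binding protein, stood at 0.493 and 0.825 FPM against 3.59 and 1.30 FPM. Gm4303 and Gm4305 are identical copies with identical counts, each at 0.936 and 0.619 FPM against 1.37 and 4.16 FPM, and count as 1 observation. Fabp7 had its high value in 10–12 m replicate 1 and Gm4303 in 10–12 m replicate 2. Without that library their log2 fold changes were 1.01 and 0.79, against 1.88 and 1.82 with all libraries, and that of Gm4303 was 0.083 when the transcript with the most fragments was taken in place of the longest.

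Spp1, which encodes the secreted protein osteopontin, stood at 2.81 and 4.81 FPM at 6–8 m and at 15.3 and 5.03 FPM at 10–12 m. The higher level came from 10–12 m replicate 1, and 10–12 m replicate 2 was close to 6–8 m replicate 2. The log2 fold change was 1.41 ± 0.42 (SE), it was 0.42 without 10–12 m replicate 1, and it was 2.02 with an adjusted p of 0.002653 by edgeR without 10–12 m replicate 2.

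**Figure D3:**
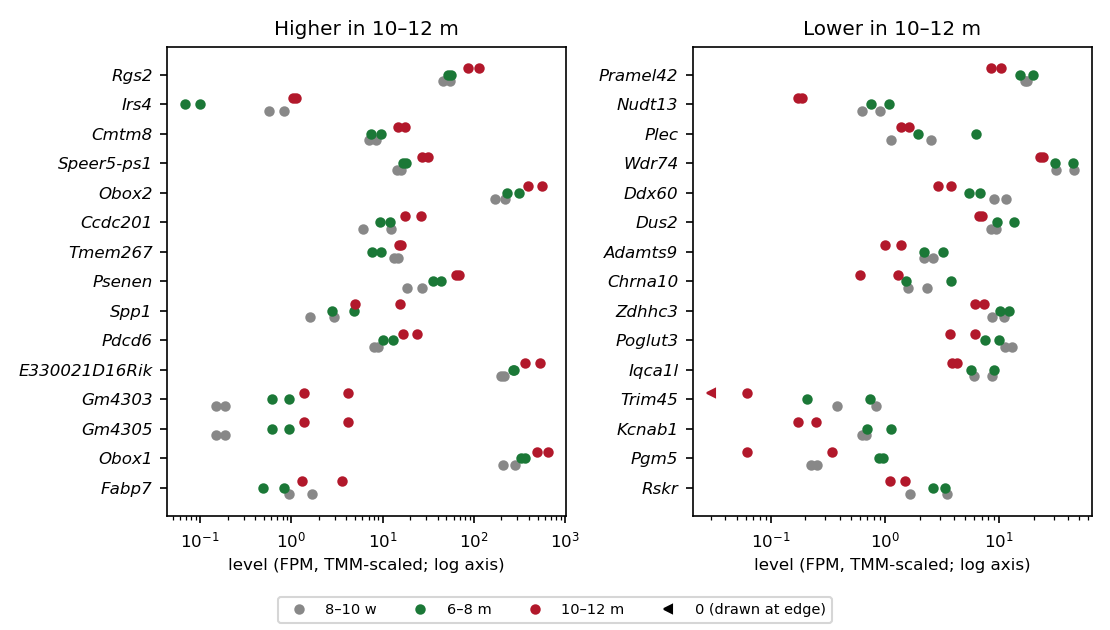
TMM-scaled level (x axis, FPM on a log axis) in each of the 6 libraries of 2-cell embryos for the 15 genes of smallest p higher at 10–12 m (left) and lower at 10–12 m (right), with 8–10 w in grey, 6–8 m in green and 10–12 m in red. In every gene both red points lie on one side of both green points, as the choice of genes fixed, and the grey points fall near the green ones for Rgs2 and Pramel42 and near the red ones for Tmem267.

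Among the genes lower at 10–12 m, Pramel42, a member of a large family of PRAME-like genes, had the smallest p. Its levels were 19.7 and 15.2 FPM at 6–8 m and 10.4 and 8.38 FPM at 10–12 m, with 16.8 and 17.4 FPM at 8–10 w, a log2 fold change of -0.90 ± 0.24 (SE) with an unadjusted p of 0.00129. The transcript is placed at 3 sites of the genome, and its log2 fold change was -0.10 when the transcript with the most fragments was taken in place of the longest.

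Wdr74, a nucleolar protein needed for assembly of the large ribosomal subunit, stood at 44.4 and 30.5 FPM at 6–8 m and at 24.0 and 22.9 FPM at 10–12 m, a log2 fold change of -0.68 ± 0.23 (SE). It was -0.38 without 6–8 m replicate 1, the higher of the 2. Ddx60, a helicase of the antiviral RIG-I pathway, stood at 5.47 and 6.81 FPM against 3.77 and 2.92 FPM, a log2 fold change of -0.88 ± 0.31 (SE), and was highest at 8–10 w, with 11.5 and 8.91 FPM. Dus2, which modifies uridines of tRNA, stood at 13.4 and 9.56 FPM against 6.59 and 7.01 FPM. The 10–12 m libraries agreed closely for Wdr74 and Dus2, and the spread lay within 6–8 m.

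Zdhhc3, a palmitoyltransferase, stood at 10.2 and 12.1 FPM against 6.08 and 7.32 FPM. Poglut3, which adds glucose to secreted proteins, stood at 7.44 and 9.83 FPM against 6.16 and 3.72 FPM. Iqca1l stood at 9.02 and 5.64 FPM against 3.85 and 4.22 FPM. For Poglut3 and Iqca1l the spread within 1 age exceeded the gap between the ages.

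The other 8 genes of the lower set were at low levels. Plec, a large cytoskeletal linker protein, stood at 6.26 and 1.93 FPM at 6–8 m and at 1.37 and 1.61 FPM at 10–12 m. Its log2 fold change of -1.47 ± 0.50 (SE) came from 6–8 m replicate 1, being -0.36 without that library and -2.08 with an adjusted p of 0.0439 by edgeR without 6–8 m replicate 2. Adamts9, a protease of the extracellular matrix, stood at 3.20 and 2.20 FPM against 1.37 and 0.993 FPM. Chrna10, a nicotinic receptor subunit, stood at 3.74 and 1.51 FPM against 0.599 and 1.30 FPM, and Rskr at 3.35 and 2.61 FPM against 1.11 and 1.49 FPM. The 6–8 m values of Plec and Chrna10 were far apart, with 6–8 m replicate 1 the high one. Nudt13, Kcnab1, Pgm5 and Trim45 were at or below 1.13 FPM in each of the 4 libraries. Trim45 had 15 and 3 fragments at 6–8 m against 0 and 1 at 10–12 m, a ratio of 14.4 with a 95% exact counting interval of 2.27 to 598.0. Nudt13 had 33 fragments over both 6–8 m libraries against 5 over both 10–12 m libraries, a ratio of 5.27 with an interval of 2.04 to 17.3.

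The genes were next grouped in 20 lists by function and cell type, of which none had a member that passed the test. For each list the number of members higher and lower, and the median log2 fold change, are given beside those over all genes tested, of which 6816 had a fold change above 0 and 6320 below 0, with a median of 0.012. Counts of members whose groups lay apart are to be read against 13.6% higher and 11.2% lower over all genes, and counts at an unadjusted p below 0.05 against 1.29% higher and 0.54% lower. When 1 library was left out, the median changed sign for 14 of the 20 lists. The members of a list share libraries and are not replicates.

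With all libraries, maternal transcripts of the oocyte had the highest median among the lists of 20 or more tested genes. Of 54 genes measured, 52 were tested, 42 with a log2 fold change above 0 and 10 below, with a median of 0.173. Groups lay apart for 19 higher (36.5%) and 2 lower (3.85%), and 6 had an unadjusted p below 0.05, all higher. Ooep, a protein of the subcortical maternal complex, stood at 34.8 and 35.5 FPM at 6–8 m and at 56.1 and 51.3 FPM at 10–12 m, a log2 fold change of 0.61 ± 0.21 (SE) with an unadjusted p of 0.00801. H1f8, the linker histone of the oocyte, stood at 106 and 149 FPM against 160 and 241 FPM, a log2 fold change of 0.65 ± 0.25 (SE). It was 0.32 without 10–12 m replicate 2. Mos, the kinase that holds the egg in metaphase, stood at 2.02 and 2.20 FPM against 2.91 and 4.96 FPM, a log2 fold change of 0.92 ± 0.38 (SE), which was 0.46 without the same library. The other 3 with an unadjusted p below 0.05 were Fbxw15 (0.56 ± 0.24), Oosp2 (0.59 ± 0.26) and Dazl (0.48 ± 0.22, log2 fold change ± SE). Both 10–12 m libraries lay above both 6–8 m libraries for Ooep, H1f8 and Mos.

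Per length, the most abundant maternal transcript was Omt2b, at 9730 FPKM at 6–8 m and 10700 FPKM at 10–12 m. Its libraries did not fall by age, with 5560 and 8750 FPM at 6–8 m against 9290 and 6460 FPM at 10–12 m, and its log2 fold change was 0.14 ± 0.27 (SE). The median of the maternal list stayed above 0 under all 15 alternatives, from 0.07 without 10–12 m replicate 2 to 0.30 without 10–12 m replicate 1. Its rank changed in both of these fits and without either 6–8 m library. Genes of 2-cell genome activation were higher without 10–12 m replicate 1, at 0.397. Oxidative phosphorylation and cytosolic ribosomal proteins were higher without 10–12 m replicate 2, at 0.245 and 0.144. So were chromosome segregation at 0.0922 and DNA damage repair at 0.0902. Without 6–8 m replicate 1, 2-cell genome activation was at 0.277 against 0.223 for maternal transcripts. Without 6–8 m replicate 2, genes that clear maternal mRNA were at 0.168 against 0.126. Set against the mean of the 4 libraries, the median maternal transcript was at 0.20 (log2) in 10–12 m replicate 2 and at -0.02 in 10–12 m replicate 1, with -0.06 and -0.08 at 6–8 m.

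Genes of 2-cell genome activation had a median log2 fold change of 0.158. Of 44 measured, 42 were tested, with 31 above 0 and 11 below, 6 apart higher (14.3%) and 3 apart lower (7.14%), and 4 higher and 1 lower at an unadjusted p below 0.05. The 4 were Obox2 and Obox1, whose transcripts the oocyte also stores, Gm2016 at 0.65 ± 0.25 and Olfr376 at 0.69 ± 0.31, and the lower one was Tdpoz2 at -0.57 ± 0.25 (log2 fold change ± SE). Gm2016 stood at 233 and 317 FPM at 6–8 m and at 361 and 501 FPM at 10–12 m, and its log2 fold change was 0.39 without 10–12 m replicate 2. Per length Obox5 was the most abundant of the list, at 1270 and 1610 FPKM, with 1660 and 1670 FPM at 6–8 m against 1800 and 2430 FPM at 10–12 m. The list moved with 10–12 m replicate 2. Its median member was at 0.30 (log2) above the mean of the 4 libraries there and at -0.13 in 10–12 m replicate 1, and the median fold change was -0.11 without replicate 2 of 10–12 m and 0.40 without replicate 1.

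Genes that clear maternal mRNA had a median of 0.045, with 33 of 34 tested, 21 above 0 and 12 below. The median ran from -0.058 without 6–8 m replicate 1 to 0.168 without 6–8 m replicate 2. Btg4, the adaptor that brings deadenylases to maternal mRNA, was the most abundant per length, with 3350 and 3060 FPM at 6–8 m against 3380 and 4120 FPM at 10–12 m and a log2 fold change of 0.23 ± 0.23 (SE). Cnot11, a subunit of the CCR4-NOT deadenylase, was the 1 gene of the list with an unadjusted p below 0.05, at 4.58 and 5.84 FPM against 9.50 and 7.45 FPM. Zfp36l2, which binds AU-rich mRNA, stood at 9.51 and 10.0 FPM against 16.0 and 11.4 FPM. Pan2, of another deadenylase, was at 36.7 and 41.1 FPM against 41.8 and 54.1 FPM.

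The lists on transcription and RNA processing stayed near the median of all genes. For RNA polymerase II transcription, 59 of 59 genes were tested, 23 above 0 and 36 below, with a median of -0.033 and 0 genes at an unadjusted p below 0.05. Gtf2b, Nelfe and Gtf2h2 had the smallest p, with log2 fold changes of 0.33 ± 0.20, -0.35 ± 0.24 and 0.32 ± 0.22 (SE). Over 15 alternatives they ran from 0.197 to 0.45, from -0.61 to -0.067 and from 0.149 to 0.472. For the spliceosome and its regulators, 108 of 111 genes were tested, 48 above 0 and 60 below, with a median of -0.010, 6 apart higher (5.56%) and 14 apart lower (13.0%). The median was -0.10 without 10–12 m replicate 1 and 0.047 without 10–12 m replicate 2. Rbmx, an RNA-binding regulator of splicing, was the 1 gene with an unadjusted p below 0.05, at 40.0 and 36.0 FPM at 6–8 m against 23.5 and 31.8 FPM at 10–12 m, and its 8–10 w levels were 21.9 and 23.7 FPM. Prpf19, a core splicing factor, stood at 2.02 and 1.44 FPM against 0.342 and 1.12 FPM, and Snrpb2, of the U2 particle, at 66.1 and 90.7 FPM against 110 and 93.7 FPM.

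Snrpc, of the U1 particle, was called lower when 6–8 m replicate 2 was left out, at an adjusted p of 0.02526 by edgeR for a log2 fold change of -1.22. Its levels were 96.2 and 27.4 FPM at 6–8 m and 26.3 and 57.2 FPM at 10–12 m, so that the high library was 6–8 m replicate 1 and the ages overlapped. Gm4567 was called higher when 10–12 m replicate 1 was left out, at an adjusted p of 1.616e-06 by edgeR for a log2 fold change of 1.88, with levels of 19.3 and 13.4 FPM against 9.93 and 60.4 FPM. Both genes were chosen after their values were seen, as calls that appeared when 1 library was left out.

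Genes of ribosome biogenesis and translation factors had a median of -0.085, the lowest of the lists as fitted here, with 49 of 49 tested, 12 above 0 and 37 below. Groups lay apart for 2 higher (4.08%) and 9 lower (18.4%), and 0 had an unadjusted p below 0.05. Rrp1, a nucleolar protein of ribosomal RNA processing, stood at 13.4 and 8.80 FPM at 6–8 m and at 6.85 and 9.06 FPM at 10–12 m. Ubtf, a transcription factor of the ribosomal RNA genes, stood at 18.7 and 17.8 FPM against 13.1 and 14.6 FPM, and Utp4 at 69.5 and 65.0 FPM against 52.9 and 57.3 FPM. The 2 ages were apart for Ubtf and Utp4 and overlapped for Rrp1. Npm1, the nucleolar chaperone and the most abundant of the list per length, was at 583 and 709 FPM against 704 and 640 FPM. The median of the list stayed below 0 under all 15 alternatives, from -0.11 to -0.06, but it was not the lowest under all of them. Preimplantation transcription factors were lower without TMM, at -0.109 against -0.108. With the replicate block in all 6 samples they were at -0.0822 against -0.0821. Cytosolic ribosomal proteins were lower without 10–12 m replicate 1, at -0.243.

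Cytosolic ribosomal proteins had a median of -0.049, with 79 of 79 tested, 18 above 0 and 61 below, and 0 at an unadjusted p below 0.05. The largest differences in this list were between replicates. Rpl41, the most abundant per length, stood at 868 and 1620 FPM at 6–8 m and at 1560 and 923 FPM at 10–12 m, a log2 fold change of 0.00 ± 0.28 (SE). The median ribosomal protein transcript was at -0.11 and 0.16 (log2, against the mean of the 4 libraries) at 6–8 m and at 0.17 and -0.21 at 10–12 m. Its median fold change was -0.24 without 10–12 m replicate 1 and 0.14 without 10–12 m replicate 2. Rpl3, Rpl10a and Rpl29 had the smallest p, with log2 fold changes of -0.36 ± 0.22, -0.24 ± 0.22 and -0.21 ± 0.20 (SE).

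Oxidative phosphorylation followed the same libraries. All 78 measured genes were tested, 46 above 0 and 32 below, with a median of 0.025 and 0 genes at an unadjusted p below 0.05. The median transcript was at -0.14 and 0.10 (log2) at 6–8 m and at 0.24 and -0.19 at 10–12 m. The median fold change was -0.22 without 10–12 m replicate 1 and 0.245 without 10–12 m replicate 2. Cox8a, a subunit of cytochrome oxidase and the most abundant of the list per length, stood at 291 and 324 FPM against 314 and 299 FPM. Atp5g2 and Ndufa8, subunits of ATP synthase and complex I, had log2 fold changes of 0.50 ± 0.30 and 0.50 ± 0.32 (SE), and Ndufa3 0.67 ± 0.48 (SE).

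Genes of DNA damage repair and response had a median of 0.042, with 90 of 93 tested, 54 above 0 and 36 below, 14 apart higher (15.6%) and 9 apart lower (10.0%). The median was -0.032 without 10–12 m replicate 1. Neil3, a glycosylase that removes oxidized bases, was the 1 gene with an unadjusted p below 0.05, at 35.5 and 43.3 FPM at 6–8 m and 51.1 and 56.3 FPM at 10–12 m. Polb, the polymerase of base excision repair, stood at 48.5 and 42.3 FPM against 54.0 and 61.4 FPM, and Xrcc1, its scaffold, at 1.13 and 1.44 FPM against 0.428 and 0.683 FPM. Tipin, of the replication fork, was the most abundant per length, at 598 and 725 FPM against 818 and 623 FPM. Groups lay apart for Neil3, Polb and Xrcc1, with Xrcc1 in the other direction.

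For p53 targets and apoptosis, 37 of 45 genes were tested, 18 above 0 and 19 below, with a median of -0.005. Casp8, the initiator caspase of death receptors, stood at 5.42 and 7.01 FPM at 6–8 m and at 9.93 and 10.9 FPM at 10–12 m, a log2 fold change of 0.75 ± 0.27 (SE) with an unadjusted p of 0.0118, the 1 gene of the list below 0.05. Bcl2l11, a death-promoting BH3 protein, had a log2 fold change of -0.26 ± 0.21 and Plk2 of 0.36 ± 0.32 (SE). Mdm4, an inhibitor of p53 that is abundant at this stage, stood at 3970 and 5170 FPM against 4930 and 4320 FPM.

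For cohesin, the spindle checkpoint and chromosome segregation, 54 of 56 genes were tested, 30 above 0 and 24 below, with a median of 0.011 and 0 genes at an unadjusted p below 0.05. Pttg1, the securin that restrains separase and the most abundant of the list per length, stood at 640 and 929 FPM at 6–8 m and at 1190 and 855 FPM at 10–12 m. Ncaph2, a condensin subunit, had a log2 fold change of -0.44 ± 0.26 and Aurkb, a kinase of the chromosomal passenger complex, of -0.25 ± 0.22 (SE). The ages overlapped for Pttg1 and Aurkb.

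Antioxidant genes had a median of -0.036, with 37 of 44 tested, 13 above 0 and 24 below. Glrx, a glutaredoxin, stood at 19.6 and 23.7 FPM at 6–8 m and 31.9 and 35.9 FPM at 10–12 m, a log2 fold change of 0.65 ± 0.22 (SE) with an unadjusted p of 0.00665. Gstp1, a glutathione transferase, stood at 17.6 and 16.7 FPM against 26.7 and 24.8 FPM, a log2 fold change of 0.59 ± 0.22 (SE) with an unadjusted p of 0.0139. Both were higher in both 10–12 m libraries, while Txn1, thioredoxin, had 1 high library, at 10.4 and 12.7 FPM against 21.7 and 12.7 FPM. Mt1, a metal-binding protein and the most abundant per length, overlapped, at 425 and 556 FPM against 565 and 386 FPM.

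Proteasome and ubiquitin genes had a median of -0.032, with 41 of 41 tested, 14 above 0 and 27 below, and 0 genes at an unadjusted p below 0.05. Psmd13, Psmc2 and Psmc1 had the smallest p, with log2 fold changes of -0.69 ± 0.34, -0.30 ± 0.21 and -0.31 ± 0.23 (SE). Without 6–8 m replicate 1 they were -0.31, -0.16 and 0.004. Ubb, a ubiquitin gene and the most abundant per length, stood at 742 and 894 FPM against 862 and 883 FPM. For chromatin and DNA methylation, 67 of 68 genes were tested, 31 above 0 and 36 below, with a median of -0.067. That median was -0.0045 without 10–12 m replicate 2. Setd1b, a histone methyltransferase, was the 1 gene with an unadjusted p below 0.05, at 4.63 and 2.96 FPM at 6–8 m and 2.14 and 1.68 FPM at 10–12 m, and stood at 1.13 and 2.42 FPM at 8–10 w. Hdac4, Ash2l and Suz12 had log2 fold changes of -0.68 ± 0.41, -0.33 ± 0.22 and 0.15 ± 0.24 (SE).

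For preimplantation transcription factors, 41 of 48 genes were tested, 14 above 0 and 27 below, with a median of -0.083, 1 apart higher (2.44%) and 8 apart lower (19.5%), and 0 genes at an unadjusted p below 0.05. That median was -0.0105 without 6–8 m replicate 2. Rarg, Tbx3 and Sox2 had the smallest p, with log2 fold changes of -0.76 ± 0.40, -0.46 ± 0.27 and 1.12 ± 0.76 (SE). Without 6–8 m replicate 1 Tbx3 was at -0.21 and Sox2 at 3.46, and without 6–8 m replicate 2 Sox2 was at 0.37. Dppa4 was the most abundant per length, at 201 and 229 FPM against 215 and 191 FPM. For antiviral and innate immunity, 32 of 50 genes were tested, 14 above 0 and 18 below, with a median of -0.042. Ddx60, described above, was the 1 gene below an unadjusted p of 0.05. Oas1h, an oligoadenylate synthetase-like gene, stood at 22.4 and 26.1 FPM against 31.5 and 35.0 FPM, and Ifitm3, a membrane protein that blocks viral entry, at 58.4 and 80.7 FPM against 96.7 and 88.9 FPM. Both were in the opposite direction to Ddx60.

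**Figure D4:**
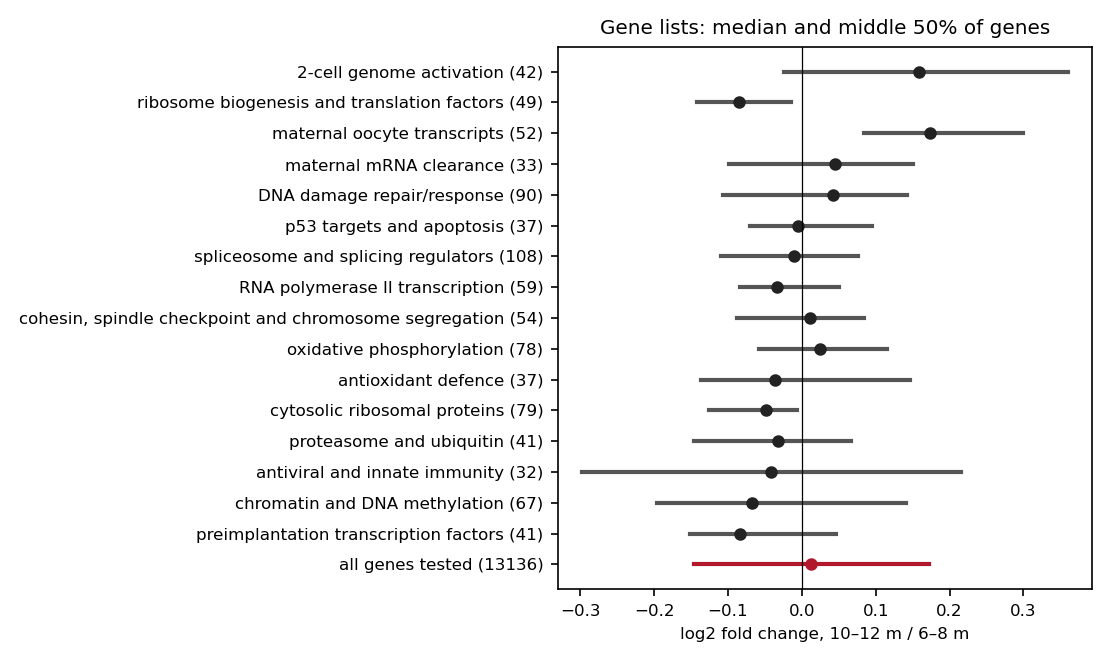
Median (point) and middle 50% (bar) of the log2 fold change of 10–12 m over 6–8 m (x axis) over the tested members of the 16 functional lists, with the number of members in brackets, and over all genes tested in red. Medians run from -0.085 for ribosome biogenesis to 0.173 for maternal transcripts, against 0.012 for all genes, and the bars of 3 lists, those of maternal transcripts, ribosome biogenesis and cytosolic ribosomal proteins, do not cross 0.

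A set of 5 genes was followed because the study examined them. Cdk9, the kinase of elongation factor P-TEFb, stood at 24.5 and 20.3 FPM at 6–8 m and at 22.0 and 23.0 FPM at 10–12 m, a log2 fold change of 0.00 ± 0.21 (SE), and at 30.3 and 27.7 FPM at 8–10 w. Ube2d3, a ubiquitin-conjugating enzyme, stood at 1270 and 1250 FPM against 1100 and 1620 FPM. Mnat1, of the CDK-activating kinase, had a log2 fold change of -0.22 ± 0.24, Fanca, of the Fanconi anaemia core complex, of 0.23 ± 0.28, and Puf60, a splicing factor, of -0.21 ± 0.25 (SE). The 5 fold changes were smaller than their standard errors, and their smallest unadjusted p was 0.370. Since they were chosen with results of these samples known, their directions are no independent evidence.

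Of the markers of cumulus and granulosa cells, 7 of 27 were tested, 5 above 0 and 2 below, with a median of 0.134, and the summed level of the list was 104 and 101 FPM at 6–8 m and 94.6 and 133 FPM at 10–12 m. The most abundant was Serpine2, at 71.8 and 70.2 FPM against 59.7 and 99.9 FPM, and Amhr2, Tnfaip6, Cyp19a1 and Star were also detected in all 6 libraries, with 75 to 158, 44 to 161, 27 to 99 and 6 to 33 fragments. The markers Amh, Inha, Ptx3 and Lhcgr were at 0 fragments in all 6. The median of the list was -0.22 without 10–12 m replicate 2. Kitl and Gatm had the other smallest p, with log2 fold changes of 0.34 ± 0.27 and -0.58 ± 0.58 (SE). Of the sperm markers, 7 of 18 were tested, 5 above 0 and 2 below, with a median of 0.249 and summed levels of 76.2 and 83.1 FPM against 82.2 and 81.0 FPM. Odf2 was the most abundant, at 50.2 and 52.1 FPM against 49.9 and 55.2 FPM, and Pgk2, Tssk6 and Oaz3 had log2 fold changes of 0.82 ± 0.57, 0.40 ± 0.43 and 0.29 ± 0.32 (SE). That of Pgk2 ran from 0.18 without 6–8 m replicate 1 to 1.74 without 6–8 m replicate 2. Over 15 alternatives that of Tssk6 ran from 0.012 to 0.957 and that of Oaz3 from 0.076 to 0.489. Of the markers of oviduct and stroma, 7 of 17 were tested, 6 above 0 and 1 below, with a median of 0.063 and summed levels of 149 and 139 FPM against 138 and 125 FPM, most of it Epcam, at 116 and 99.8 FPM against 97.6 and 86.5 FPM. Pdgfra, a receptor of mesenchymal cells, had an unadjusted p of 0.00758, at 0.542 and 0.413 FPM against 2.91 and 0.869 FPM, and a log2 fold change of 1.91 ± 0.64 (SE) that was 0.84 without 10–12 m replicate 1. Dcn, of connective tissue, stood at 0.0493 and 0.825 FPM against 0.770 and 0.310 FPM.

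No blood or immune marker passed the test, and their summed levels overlapped between the ages. Of 16 markers, 5 were tested, 3 above 0 and 2 below, with a median of 0.961 that was -0.22 without 10–12 m replicate 1, and the summed level was 28.5 and 39.6 FPM at 6–8 m and 49.7 and 27.1 FPM at 10–12 m. Hba-a1, a globin gene, was the most abundant per length, at 12.6 and 15.3 FPM against 13.9 and 12.0 FPM. The 2 members below 0 were Hba-a1 and its near-identical copy Hba-a2, which have almost the same counts and are 1 observation. Lyz2, the lysozyme of macrophages and neutrophils, had 23 and 97 fragments at 6–8 m and 169 and 11 at 10–12 m. Cd68, of macrophage lysosomes, had 24 and 28 fragments against 64 and 27, with a log2 fold change of 1.19 ± 0.50 (SE), an unadjusted p of 0.0266 and a value of 0.13 without 10–12 m replicate 1. Ptprc, the pan-leukocyte antigen, had 0 and 2 fragments against 11 and 0, and Itgam had a log2 fold change of 1.33 ± 0.94 (SE), which ran from 0.49 without 6–8 m replicate 2 to 6.04 without 6–8 m replicate 1. The macrophage receptor Csf1r had 7 and 0 fragments against 0 and 0, and Adgre1 had 0 and 0 against 1 and 0. Anxa1, an annexin of leukocytes and epithelia, had 0 and 5 fragments against 48 and 0.

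Of the 4 libraries, Lyz2, Cd68, Ptprc, Anxa1 and Spp1 were highest in 10–12 m replicate 1, whereas Itgam was highest in 10–12 m replicate 2, at 0.394 and 0 FPM at 6–8 m against 0.428 and 0.683 FPM, Csf1r in 6–8 m replicate 1 and Hba-a1 in 6–8 m replicate 2. When 10–12 m replicate 2 was left out, Spp1, Anxa1 and Lyz2 became the 3 DEGs, all higher at 10–12 m, and when 6–8 m replicate 2 was left out Anxa1 and Lyz2 were the 2 higher DEGs, beside Plec and Snrpc lower. When 10–12 m replicate 1 was left out, the log2 fold change of Lyz2 was -2.46. The part of these transcripts in the result for Spp1 was not tested.

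**Figure D5:**
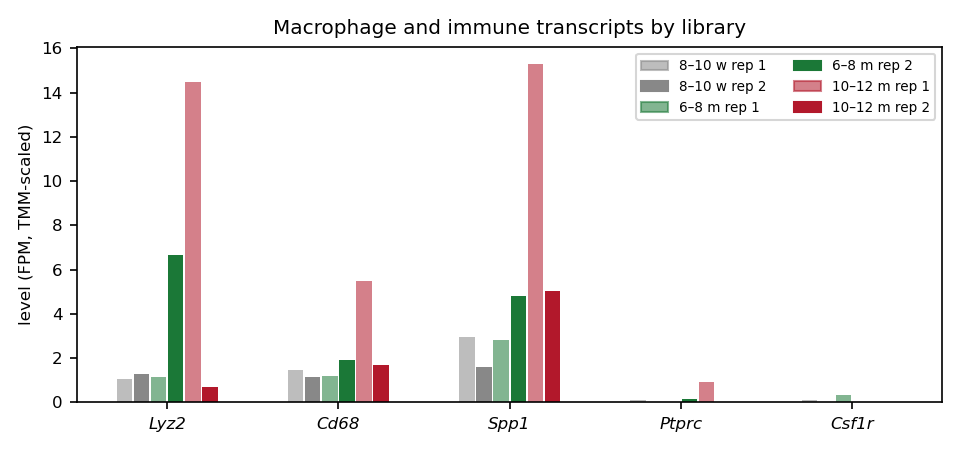
TMM-scaled level (y axis, FPM from 0) of Lyz2, Cd68, Spp1, Ptprc and Csf1r in the 6 libraries of 2-cell embryos, 1 bar per library, replicate 1 paler than replicate 2. The bar of 10–12 m replicate 1 is the highest for Lyz2 (14.5 FPM), Cd68 (5.48 FPM), Spp1 (15.3 FPM) and Ptprc (0.941 FPM), and 10–12 m replicate 2 lies at 0.683, 1.68, 5.03 and 0 FPM.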

How the data were processed

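RNA-seq tables of mouse 2-cell embryos, 1 per sample, were analysed for females of 10–12 m, of 6–8 m and of 8–10 w (2 samples per age). The authors deposited, per RefSeq transcript, a fragment count, FPM (a signal scaled to the library's fragments) and FPKM. The study's methods name adapter trimming with Cutadapt and alignment with STAR to mm10 and read counting with HTSeq. Whether HTSeq or another program made the deposited per-transcript tables is not given in the sources used here. Library totals were recovered as the fragment count divided by FPM. Of 34755 accessions, 34424 matched a gene symbol, giving 24222 genes, each represented by its transcript of largest size, and 386 genes have several placements. These transcripts held 56.8% to 61.6% of all fragments.

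Counts were fitted with edgeR 4.0.16 (TMM, filterByExpr with a minimum count of 10, quasi-likelihood F test) in 1 model of all 6 samples, and p-values were adjusted over 13136 genes by the Benjamini-Hochberg method. The quasi-likelihood fit reports no standard error. Each standard error was taken as the absolute log2 fold change divided by the square root of the F statistic. The 95% confidence intervals used it with a t quantile. DESeq2 1.42.0 was an alternative. The script was tested on simulated data. An exact permutation test of 2 against 2 samples cannot give a p below 0.333. FPKM served to compare levels between genes. Levels in single libraries by list used log2(FPM + 0.5). Intervals of fragment ratios cover counting error only.

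Named genes were the 15 with the smallest p in each direction among genes whose groups lay apart, the 3 with the smallest p and the most abundant per length of each list, and 5 genes of the study. Members and lists were chosen with earlier results of these data known. Tables of oocytes were not used here.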

Additional observations from a re-analysis of the deposited data

How the results depend on the processing

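The count of 0 DEGs was the same under 15 alternatives: other normalizations, DESeq2, all genes with at least 1 fragment, the 4 samples alone, other transcripts, other thresholds, the replicate block, the crossed block in 6 samples and leaving out either 8–10 w library or 6–8 m replicate 1. Leaving out 1 library gave 0 to 4 DEGs, the same 0 to 4 genes at an adjusted p below 0.05, and 221 to 637 genes at an unadjusted p below 0.05, where the lone sample is assumed to vary like the other groups. The 240 genes at an unadjusted p below 0.05 were 133 with DESeq2, 424 of 19867 without the filter on low counts, and 96 with the replicate block in the 4 samples alone; with the replicate block in all 6 samples they were 197. The replicate numbers were not taken to pair samples of 10–12 m with those of 6–8 m, since the deviations of same-numbered samples of these ages had a correlation of -0.266 across genes. With the numbers crossed, chosen after seeing the data, there were 408 such genes in 6 samples with 0 DEGs, and 784 in the 4 samples alone, with 30 at an adjusted p below 0.05 and 2 DEGs. Over all named genes and alternatives, 1560 log2 fold changes kept their direction and side of the threshold, 46 changed sign and 4, of Spp1, Plec and Lyz2, passed the threshold when 1 library was left out. Leaving out each library, the fold changes that changed sign ran as follows. The range was for Npm1 from -0.078 to 0.179, Omt2b from -0.153 to 0.475, Tipin from -0.084 to 0.305, Mdm4 from -0.160 to 0.193, Snrpg from -0.137 to 0.378 and Polr2j from -0.213 to 0.432. It was for Cox8a from -0.082 to 0.046, Mt1 from -0.343 to 0.202, Rpl41 from -0.424 to 0.487, Psmc1 from -0.591 to 0.004, Ubb from -0.036 to 0.207 and Suz12 from -0.090 to 0.421. It was also for Serpine2 from -0.252 to 0.496, Odf2 from -0.038 to 0.114, Lyz2 from -2.462 to 2.661, Hba-a1 from -0.245 to 0.010, Dcn from -0.652 to 3.185, Cdk9 from -0.151 to 0.149 and Ube2d3 from -0.197 to 0.365. Other settings moved Rpl41 to -0.009 (DESeq2 size factors), -0.014 (no TMM), -0.009 (DESeq2), -0.016 (4 samples) and -0.001 (transcript with the most fragments), Cdk9 to -0.009, -0.035, -0.009, -0.015 and, with the replicate block in 4 samples, -0.006, Mdm4 to -0.002 without TMM and Cox8a to 0.000 without the filter. The cause of these changes was not tested. Of 108 named genes, 79 had a log2 fold change that moved by over 1.5 times when 1 library was left out. Standard errors were widest for genes under 1 FPM, with a median of 0.688.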

Other observations

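The genes in this section were chosen after their values were seen. By chromosome, without the Y, the median log2 fold change ran from -0.0326 on chromosome 17 to 0.0472 on the X chromosome. The Y chromosome had 8 tested genes, 7 of them above 0, with a median of 0.16. Zfy2, a zinc finger gene of the Y, stood at 2.56 and 2.34 FPM at 6–8 m and at 5.82 and 4.22 FPM at 10–12 m, a log2 fold change of 1.02 with an unadjusted p of 0.00653 and an adjusted p of 0.9997 by edgeR. Eif2s3y stood at 15.1 and 17.6 FPM against 19.9 and 16.0 FPM, and Ddx3y at 1.77 and 1.86 FPM against 3.17 and 1.43 FPM. Uty went the other way, at 15.8 and 19.6 FPM against 13.0 and 15.6 FPM, a log2 fold change of -0.30 ± 0.23 (SE).

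Mmp12, a protease secreted by macrophages, stood at 7.34 and 7.70 FPM at 6–8 m and at 13.4 and 12.0 FPM at 10–12 m. Ms4a6d, a membrane protein, stood at 4.19 and 3.37 FPM against 7.96 and 5.96 FPM, and Lcp2, an adaptor of immune receptors, at 5.27 and 3.78 FPM against 8.99 and 8.32 FPM. Unlike Lyz2 and Cd68, these 3 genes were higher in both 10–12 m libraries, and none had an adjusted p below 0.9997 by edgeR. They were in neither the marker list nor the set of 30 genes. At 8–10 w Mmp12 stood at 2.58 and 3.02 FPM, Ms4a6d at 3.02 and 4.45 FPM and Lcp2 at 2.70 and 3.93 FPM. In 10–12 m replicate 2 Mmp12, Ms4a6d and Lcp2 had 193, 96 and 134 fragments, while Ptprc, Csf1r and Adgre1 had 0. The cells they came from were not tested.

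Genes with short transcripts held more of the genes with an unadjusted p below 0.05. The tested genes were put in 4 equal groups by transcript length. The group of the shortest, from 54 to 1699 bases, held 80 higher and 21 lower at 10–12 m, of 3286 genes. The groups in between held 36 higher and 17 lower of 3284, and 34 higher and 15 lower of 3283. The group of the longest, from 4247 to 101674 bases, held 19 higher and 18 lower of 3283. Over all 13136 genes the shares were 1.29% higher and 0.54% lower, and differences between the groups were not tested. The median log2 fold change was 0.0154 in the group of the shortest and 0.0224 in that of the longest.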
